A study of Danio rerio with 4 samples.

Results

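Fibrinogen and the coagulation factors were examined in uhrf1 mutant and wildtype zebrafish larvae. The members were all probe sets annotated with exactly 1 gene symbol that was fga, fgb, fgg, f2, f3a, f3b, f5, f8, f9a, f9b, f10, plg, serpinc1, serpind1, proca or vwf, or that began with f7 or f13. This gave 17 probe sets for 14 genes, of 15502 probe sets and 8793 named genes in all. The genes f2, f3a, f3b, f8, f9b, f10 and vwf were not analysed here. The labels give the age of the larvae as 120 hours post fertilization, except that the treatment protocol has days in place of hours, and hours are used here. Their total RNA was hybridised to 1-colour Affymetrix zebrafish arrays, 2 for uhrf1 mutant larvae (replicates 1 and 2) and 2 for wildtype larvae (replicates 1 and 3). Per the labels' growth protocol, most of the study's experiments used offspring of uhrf1hi272+/- parents, and some used an outcross to Tg(fabp10:hUHRF1-GFP). The labels assign neither to these arrays beyond the words UHRF1 mutant and wildtype, and they do not say whether the mutants were homozygous, how many larvae each sample held, or whether replicates came from separate clutches. The p-values therefore reflect only how far these 4 arrays scatter, and that scatter may be technical.

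Fibrinogen is a plasma protein secreted by hepatocytes and assembled from Aα, Bβ and γ chains, which fga, fgb and fgg encode. Thrombin, at the end of a cascade of serine proteases and cofactors, trims fibrinogen to fibrin, factor XIII cross-links the fibrin, and plasmin dissolves it. In mammals the 3 chain genes are acute-phase genes of the liver, induced together by interleukin-6 through STAT3, while most other clotting factors are not. UHRF1 binds hemimethylated DNA and recruits the maintenance methyltransferase DNMT1.

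The deposited values were intensities made with RMA, a method that corrects background, normalizes all arrays together and gives 1 value per probe set, and their scale is linear and arbitrary. A log2 change below is mutant minus wildtype on log2(intensity + 1), with the standard error from limma, a linear model that shares information on the spread across probe sets. A probe set was called at a limma p, adjusted by Benjamini-Hochberg over all 15502 probe sets, under 0.05. The median intensity of the arrays lay between 29.4 and 31.5. The brighter uhrf1 probe set read 41.1 and 26.3 on the mutant arrays, against 47.4 and 41.5 on the wildtype arrays, and was not called (limma adjusted p = 0.56). Of the 18 probe sets for hybridisation controls, transcripts added in known amounts, 17 had both mutant readings below both wildtype readings. The mean difference over all 18 was -0.49 on the log2 scale. Several of these probe sets read the same transcript, so they are not independent readings. Scaling on these controls moves the median change of all probe sets to 0.45, against -0.04 as deposited, so all changes are relative to the bulk of the array.

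In all 3 fibrinogen chain genes the mutant arrays read above the wildtype arrays, at 3.21 to 3.78 times the wildtype mean. By limma fgb and fgg rose, and fga, with a change of similar size, just missed the threshold. The cofactor gene f5 read 2.20 times the wildtype mean and also just missed it. The genes of factor VII and its relatives, factor IX, factor XIII and the clotting inhibitors were not called, and the lowest change among them was that of f7i. Thus 2 of the 17 probe sets were called higher, beside 0.845% of all probe sets, and 0 were called lower, beside 0.658% of all. At an unadjusted limma p under 0.05, 5 of the 17 were higher and 1 was lower, beside 5.1% and 6.84% of all probe sets, so the lower count was near the share of the whole array. The median log2 change over the 17 was 0.05, beside -0.04 over all probe sets, and it was -0.01 when mutant replicate 2 was left out and -0.03 when wildtype replicate 3 was.

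**Figure D1:**
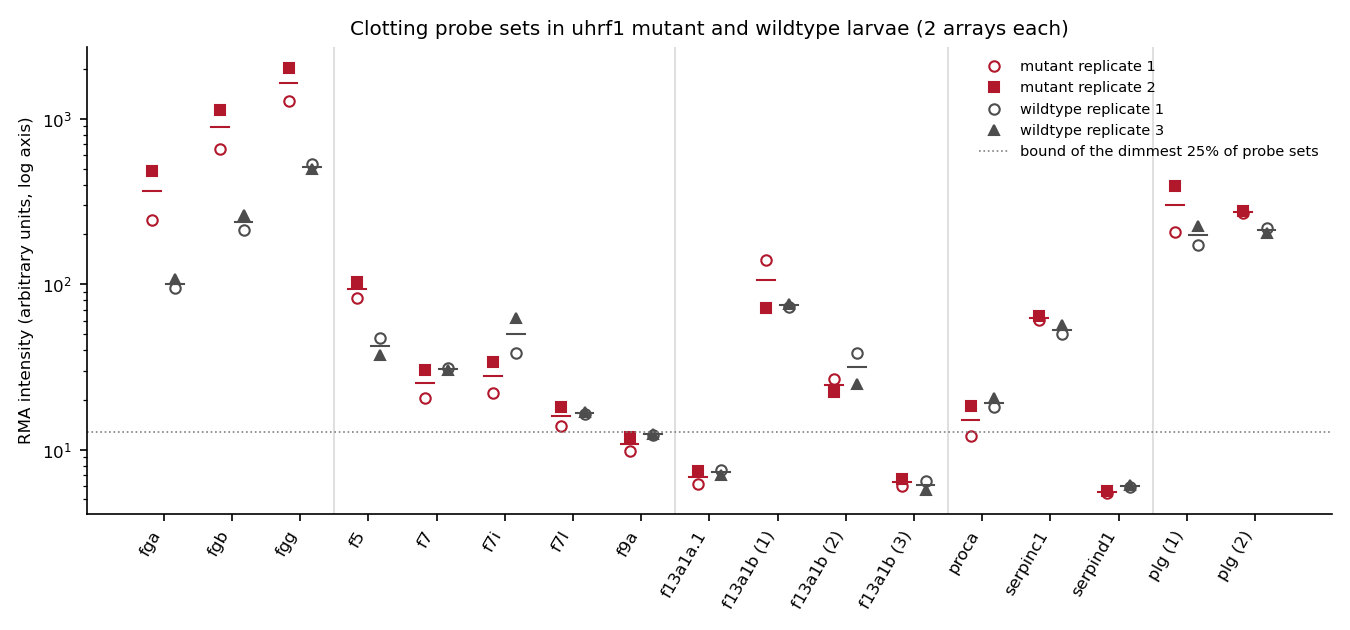
RMA intensity (vertical log axis, arbitrary units) of the 17 clotting probe sets on each array, mutant (red) left of wildtype (grey), with a bar at each group's mean of 2 arrays. Numbers in brackets tell apart probe sets of 1 gene, grey lines part the functional groups, and the dotted line at 12.7 bounds the dimmest 25% of probe sets. Both mutant values of fga, fgb, fgg and f5 lie above both wildtype values.

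The Bβ chain gene fgb read 660.1 and 1134 on the mutant arrays, against 214.0 and 260.4 on the wildtype arrays. The lower mutant array was thus well above the higher wildtype array. Means were 897 ± 335 in mutants and 237 ± 32.8 in wildtype larvae (SD, n = 2 each), a ratio of 3.78. The log2 change was 1.87 ± 0.27 (SE), with a 95% interval of 1.21 to 2.53 and a limma adjusted p of 0.038. In order of p it was number 182 of the 15502 probe sets.

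The γ chain gene fgg read 1279 and 2022 on the mutant arrays, against 533 and 495 on the wildtype arrays. Again the groups did not overlap, and the wildtype arrays lay close together while the mutant arrays were apart. Means were 1650 ± 526 in mutants and 514 ± 26.9 in wildtype larvae (SD, n = 2 each), a ratio of 3.21. The log2 change was 1.65 ± 0.23 (SE), with a 95% interval of 1.08 to 2.21 and a limma adjusted p of 0.034, number 171 in order of p.

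The Aα chain gene fga read 246 and 484 on the mutant arrays, against 94.3 and 106.8 on the wildtype arrays. Means were 365 ± 168 in mutants and 100.5 ± 8.86 in wildtype larvae (SD, n = 2 each), a ratio of 3.63. The change of 1.77 ± 0.31 (SE, log2), with a 95% interval of 1.01 to 2.53, lay between those of fgb and fgg, but the mutant arrays were farther apart than for the other chains and the limma adjusted p was 0.066. The call of fga turned on single arrays. By limma its adjusted p was 0.0085 when mutant replicate 1 was left out, 0.049 when wildtype replicate 1 was, 0.036 when wildtype replicate 3 was, and 0.055 when mutant replicate 2 was. Over the 12 other settings tried it lay between 0.008 and 0.63.

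Differences between the chains within an array did not separate mutant from wildtype larvae. The log2 value of fgb minus that of fgg was -0.95 and -0.83 on the mutant arrays, against -1.31 and -0.92 on the wildtype arrays. For fga minus fgb it was -1.42 and -1.23 on the mutant arrays, against -1.17 and -1.28 on the wildtype arrays. For fga minus fgg it was -2.38 and -2.06 on the mutant arrays, against -2.49 and -2.20 on the wildtype arrays. In all 3 pairs the groups overlapped, and for fgb minus fgg the 2 wildtype arrays were farther apart than the 2 mutant arrays. These differences hold each probe set's own brightness and say nothing of the ratio of the transcripts. In the RefSeq annotation of GRCz12tu, fga, fgb and fgg all lie on chromosome 1. Between fga and fgb lies 1 protein-coding gene, and fgg is next to neither.

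**Figure D2:**
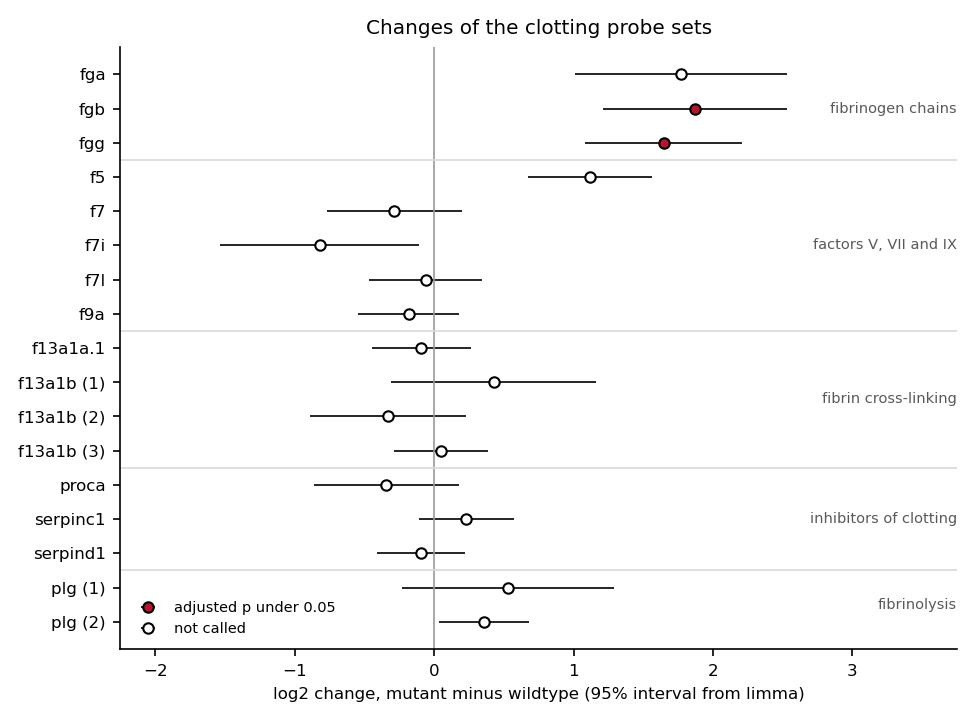
Log2 change, mutant minus wildtype (horizontal axis), of the 17 clotting probe sets with 95% intervals from limma, grouped by function from the fibrinogen chains at the top to plasminogen at the bottom. Only fgb and fgg are filled, as called, and the intervals of fga, f5 and 1 plg probe set lie wholly above 0 and that of f7i wholly below it.

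Among the proteases and cofactors upstream of fibrin, f5 encodes factor V, the cofactor with which factor Xa activates prothrombin. It read 82.9 and 103.4 on the mutant arrays, against 47.2 and 37.5 on the wildtype arrays, so the groups were apart. Means were 93.1 ± 14.5 in mutants and 42.4 ± 6.87 in wildtype larvae (SD, n = 2 each), which is 1.12 ± 0.18 higher on the log2 scale (SE), at an adjusted p of 0.053 by limma. The log2 change of f5 was 1.28 without wildtype replicate 1 or without mutant replicate 1. It was 0.96 without wildtype replicate 3 or without mutant replicate 2. Over the 12 other settings tried the adjusted p of f5 lay between 0.0085 and 0.57.

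The 3 factor VII genes lie side by side in that annotation, in the order f7l, f7, f7i, and none was called. The gene f7i, whose product lacks protease activity and inhibits clotting in zebrafish, read 21.9 and 33.9 on the mutant arrays, against 38.4 and 62.2 on the wildtype arrays. Its mean was 27.9 ± 8.51 in mutants and 50.3 ± 16.8 in wildtype larvae (SD, n = 2 each). The log2 change was -0.82 ± 0.29 (SE), at an adjusted p of 0.34 by limma, and the 95% interval, -1.53 to -0.11, lay below those of the 3 fibrinogen genes. Both arrays of each group were far apart for this gene. The gene f7, which encodes the protease that tissue factor activates, read 20.6 and 30.08 on the mutant arrays, against 31.1 and 30.14 on the wildtype arrays. Those groups were separated only by the narrow gap between mutant replicate 2 and wildtype replicate 3, and the change was -0.29 ± 0.20 (SE, log2). Its neighbour f7l read between 13.9 and 18.2 on all 4 arrays, with overlapping groups and a change of -0.06 ± 0.17 (SE, log2). The factor IX gene f9a read 9.74 and 11.9 on the mutant arrays, against 12.3 and 12.4 on the wildtype arrays, under 12.7, the upper bound of the dimmest 25%. Its change was -0.18 ± 0.15 (SE, log2).

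Factor XIII, the transglutaminase that cross-links fibrin, was represented by f13a1a.1 and by 3 probe sets of f13a1b, none of which was called. The brightest f13a1b probe set read 139.8 on mutant replicate 1 but 72.3 on mutant replicate 2, against 72.8 and 76.2 on the wildtype arrays. Only mutant replicate 1 thus stood apart, and the change was 0.43 ± 0.30 (SE, log2). The second probe set read 26.7 and 22.3 on the mutant arrays, against 38.5 and 24.8 on the wildtype arrays, with a change of opposite sign, -0.33 ± 0.23 (SE, log2). The third read between 5.72 and 6.61 on all arrays and f13a1a.1 between 6.21 and 7.54, both among the dimmest 25%. The 3 probe sets of f13a1b therefore gave no common direction.

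Among the inhibitors, serpinc1 encodes antithrombin, which blocks thrombin and factor Xa. It read 60.7 and 64.0 on the mutant arrays, against 49.8 and 56.4 on the wildtype arrays. The groups did not overlap but were close, and the change was 0.23 ± 0.14 (SE, log2), at an adjusted p of 0.61 by limma. The protein C gene proca, whose activated product cleaves factors V and VIII, read 12.1 and 18.3 on the mutant arrays, against 18.0 and 20.4 on the wildtype arrays, a change of -0.34 ± 0.21 (SE, log2). The heparin cofactor II gene serpind1 read between 5.49 and 6.08 on all arrays, close to the lowest values of the array, so little can be read from its change of -0.10 ± 0.13 (SE, log2).

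Plasminogen, the precursor of the protease that dissolves fibrin, was measured by 2 plg probe sets, and neither was called. The first read 207.2 and 393 on the mutant arrays, against 174 and 224 on the wildtype arrays, so the groups overlapped. The second read 269 and 277 on the mutant arrays, against 219.7 and 205.3 on the wildtype arrays, without overlap. Both changes were upward in sign, at 0.53 ± 0.31 (adjusted p = 0.61 by limma) and 0.36 ± 0.13 (adjusted p = 0.35; SE, log2). The first probe set moved with a single array, since its change was 0.07 when mutant replicate 2 was left out and 0.99 when mutant replicate 1 was.

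Over all 17 probe sets, 6 had both mutant arrays above both wildtype arrays and 4 had both below. Over all probe sets these shares were 14.9% and 26.3%. The 6 were the 3 fibrinogen chains, f5, serpinc1 and 1 plg probe set, and the 4 were f7, f7i, f9a and serpind1. Directions of some small changes depended on the scale. With arrays scaled on the hybridisation controls 16 of the 17 changes were above 0, all but f7i, against 9 of 17 as deposited. Over all 15502 probe sets 6191 changes were above 0 as deposited. That scaling raised every change by the same amount and put the median of all probe sets at 0.45, so the 16 are not particular to these genes. The changes of fga, fgb, fgg and f5 stayed positive and that of f7i negative under all 5 scalings tried. Those of serpinc1, both plg probe sets and the brightest and dimmest f13a1b probe sets also stayed positive. A stable sign was thus not particular to the larger changes.

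The mutant arrays differed from each other in these genes. Of the 17 probe sets, 15 were higher on mutant replicate 2 than on mutant replicate 1 (88.2%), with a median log2 difference of 0.32, beside 55.3% and 0.03 over all probe sets. The log2 difference between the mutant arrays was 0.97 for fga, 0.78 for fgb and 0.66 for fgg, but 0.32 for f5. Hepatocyte markers moved in the same way, with 15 of 18 measured genes higher on mutant replicate 2 (83.3%) and a median difference of 0.60. Between the wildtype arrays the median difference, replicate 3 minus replicate 1, was 0.26 for the hepatocyte markers and 0.03 for the clotting probe sets. In whole larvae fewer hepatocytes and less RNA per hepatocyte cannot be told apart.

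Hepatocyte markers as a list did not differ one way between the groups. By limma 0 of 18 were called, beside 1.03% of all genes called higher and 0.967% lower. At an unadjusted p under 0.05, 5 of the markers were higher and 4 lower, beside 5.74% and 8.96% of all genes. Their median log2 change of 0.04 lay between opposed changes and does not measure liver content. Both mutant arrays were above both wildtype arrays for 5 of the 18 and below for 8, beside 1339 and 2581 of all 8793 genes. Their summed intensity was 22444 and 32712 on the mutant arrays, against 25285 and 30275 on the wildtype arrays, so it overlapped. Such a sum is carried mostly by the brightest markers and does not describe the list as a whole. Single markers went in both directions without being called. The fetuin gene ahsg1 changed by -1.05 ± 0.17, and just missed the threshold (limma adjusted p = 0.05 after rounding). The transferrin gene tfa changed by -1.42 ± 0.38, the hepatic fatty acid binding protein gene fabp10a by -0.91 ± 0.33, the ceruloplasmin gene cp by 1.61 ± 0.43 and the angiotensinogen gene agt by 1.42 ± 0.38 (SE, log2). Of the other markers at an unadjusted limma p under 0.05, fetub changed by -0.72 ± 0.20 (SE, log2). The apolipoprotein genes apobb.1, apoba and apoa1a changed by 0.52 ± 0.15, 0.89 ± 0.27 and 0.82 ± 0.29 (SE, log2). The part of liver content in the fibrinogen values was not tested.

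**Figure D3:**
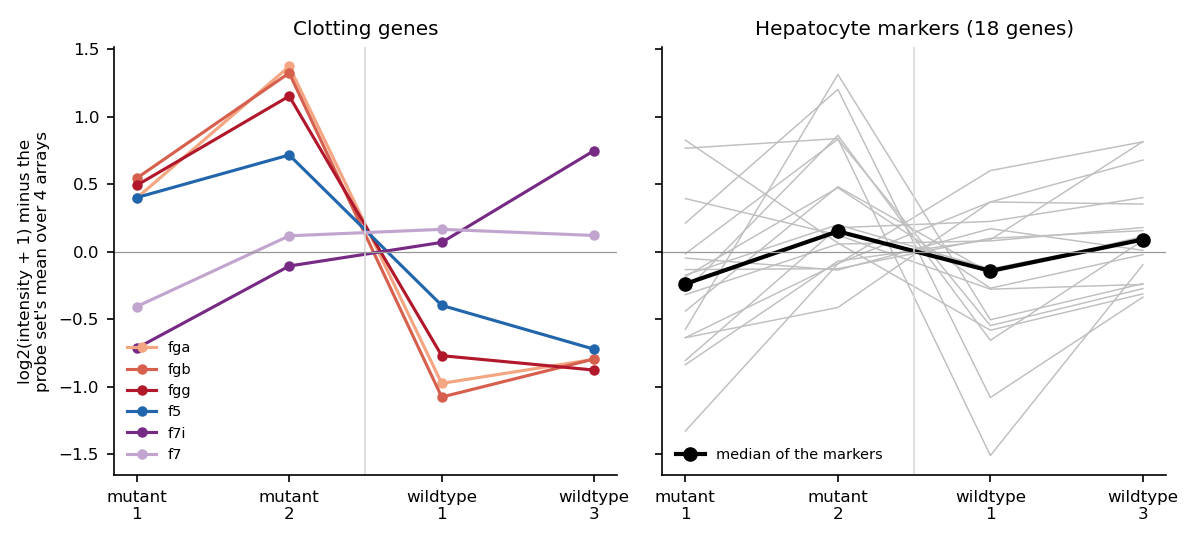
Log2(intensity + 1) minus each probe set's mean over the 4 arrays (vertical axis) on the 2 mutant and 2 wildtype arrays. On the left are fga, fgb, fgg, f5, f7i and f7, and on the right the 18 hepatocyte markers (grey) with their median (black), with lines that only join the points of 1 gene. The fibrinogen chains are high on both mutant arrays and higher on replicate 2, while the hepatocyte median is higher on mutant replicate 2 than on replicate 1 and overlaps between groups.

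Markers of thrombocytes, endothelium, macrophages and muscle were also read. Among the dimmest 25% of probe sets were 3 thrombocyte, 1 endothelial and 2 macrophage genes, while the muscle genes were bright. None of the 5 thrombocyte, 3 endothelial, 5 macrophage and 3 muscle genes measured was called by limma, beside 1.03% of all genes called higher and 0.967% lower. At an unadjusted limma p under 0.05 the count was 0 of these 16, beside 5.74% of all genes higher and 8.96% lower. At those shares a count of 0 among 16 genes says little. The thrombocyte integrin gene itga2b read between 5.20 and 6.31 on all arrays and gp1bb between 8.81 and 10.9, both among the dimmest 25%. Summed intensities of the thrombocyte list were 87.6 and 76.8 on the mutant arrays, against 76.7 and 80.8 on the wildtype arrays. For the macrophage list they were 119.0 and 145.1 on the mutant arrays, against 132.3 and 115.4 on the wildtype arrays, and for the endothelial list 101.3 and 77.2 on the mutant arrays, against 89.3 and 68.7 on the wildtype arrays. All 3 sums overlapped between groups, and they too are carried mostly by the brightest genes of each list. Muscle sums were 12862 and 12627 on the mutant arrays, against 11833 and 10482 on the wildtype arrays, and did not overlap. The part of these cell types in the clotting values was not tested.

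Other genes of clotting and fibrinolysis were taken from a list of 52, of which 19 were measured, with 1 probe set per gene. This list was also chosen with earlier results of these data known. None was called in either direction, while 1.03% of all genes were called higher and 0.967% lower. At an unadjusted limma p under 0.05, 5 of the 19 were higher and 1 was lower, beside 5.74% and 8.96% of all genes. The genes of annexin A2 and its partner S100A10, anxa2a and s100a10b, which as a cell-surface pair bind plasminogen and its activator, had log2 changes of 0.58 ± 0.17 and 0.60 ± 0.17 (SE). The transglutaminase gene tgm2b changed by 0.56 ± 0.13, the C1 inhibitor gene serping1 by 0.60 ± 0.20 and the tissue factor pathway inhibitor gene tfpia by 0.55 ± 0.20 (SE, log2). The protease inhibitor gene serpine2 changed by -0.48 ± 0.14 (SE, log2). The kininogen gene kng1 and the plasmin inhibitor gene serpinf2a, both made by the liver, had values below 0, at -0.55 ± 0.27 and -0.43 ± 0.23 (SE, log2), and their adjusted p was 0.51 and 0.56 by limma. The median over the 19 was -0.07.

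Genes known from mammals to control fibrinogen expression formed a list of 31, of which 17 were measured. The list was chosen with earlier results of these data known, so its counts are not independent of these data. By limma 3 rose (stat3 and both socs3 genes), 0 fell and 14 were not called. Of all genes 1.03% were called higher and 0.967% lower. At an unadjusted limma p under 0.05, 6 of the 17 were higher and 2 were lower, beside 5.74% and 8.96% of all genes. The median log2 change was 0.20, beside -0.06 over all named genes. The transcription factor gene stat3 read 58.5 and 59.2 on the mutant arrays, against 32.2 and 32.6 on the wildtype arrays, 0.84 ± 0.13 higher on the log2 scale (SE), at an adjusted p of 0.043 by limma. The feedback inhibitors of that pathway, socs3a and socs3b, were at 6.60 and 3.98 times their wildtype means. The gene socs3a read 506 and 459.9 on the mutant arrays, against 65.2 and 81.2 on the wildtype arrays, and socs3b 151 and 149.7 on the mutant arrays, against 40.0 and 35.6 on the wildtype arrays. Unlike the fibrinogen chains, stat3 and both socs3 genes were nearly level between the mutant arrays. The C/EBP transcription factor gene cebpb and the kinase gene jak1 changed by 0.94 ± 0.17 and 0.86 ± 0.18 (SE, log2), with no overlap between groups and an adjusted p of 0.071 and 0.11 by limma.

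The measured hnf and forkhead genes on that list were not called, and all but hnf1bb had changes below 0. Only 3401 of all 8793 genes had changes above 0, so a change below 0 was the commoner sign. The nuclear receptor gene hnf4a changed by -0.15 ± 0.15 (SE, log2). The forkhead genes foxa1, foxa2 and foxa3 changed by -0.52 ± 0.13, -0.39 ± 0.13 and -0.14 ± 0.16 (SE, log2). For hnf4a, foxa1 and foxa2 both mutant arrays read below both wildtype arrays, at limma adjusted p-values of 0.78, 0.18 and 0.31. The gap was narrow for hnf4a, which read 24.5 and 29.5 on the mutant arrays, against 29.96 and 30.10 on the wildtype arrays. Over the 17 genes of that list, both mutant arrays were above both wildtype arrays for 8 and below for 3. Among all 8793 genes these counts were 1339 and 2581. The homeobox gene hnf1bb was at 0.20 ± 0.24 (SE, log2), with overlapping groups. The kinase genes jak2a and jak2b changed by 0.03 ± 0.23 and 0.01 ± 0.16 (SE, log2).

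**Figure D4:**
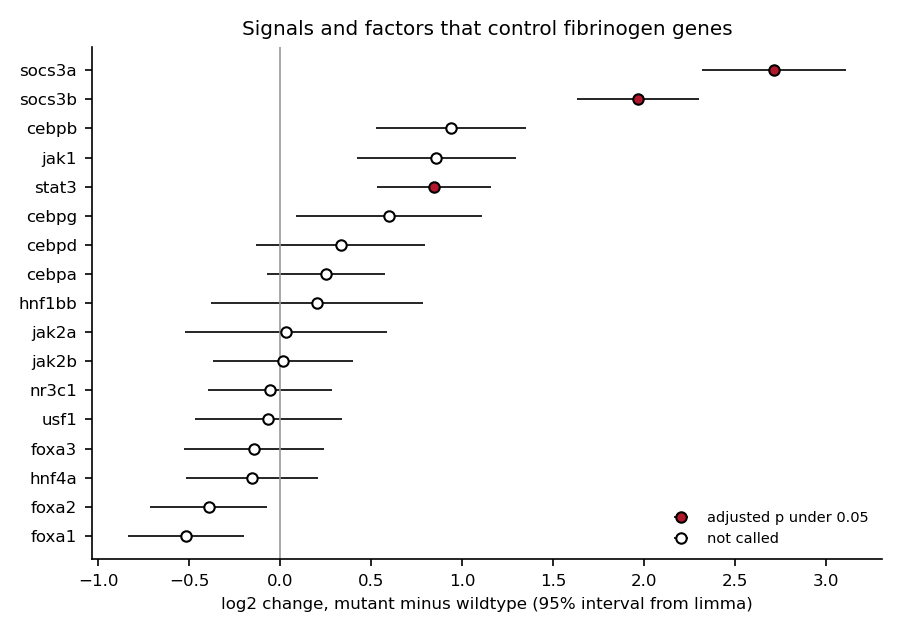
Log2 change, mutant minus wildtype (horizontal axis), with 95% intervals from limma, of the 17 measured genes known to control fibrinogen genes in mammals, ordered by change. The genes socs3a, socs3b and stat3 are filled, as called, and foxa1 lies lowest at -0.52.

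The genes with array profiles most like fgb and fgg were sought among the 2546 named genes, fgb and fgg included, with a mean intensity of at least 100, by the root mean square distance of their centred log2 values over the 4 arrays. With 4 arrays in 2 groups this mostly ranks genes by the size of the group difference. The gene nearest to fgb was fga, at a distance of 0.0925. It was followed by the thioredoxin gene txnb at 0.151, the proteasome gene psmd10 at 0.179, fgg at 0.182 and the AP-1 gene junba at 0.279. The genes nearest to fgg were the AP-1 gene junbb and the cathepsin S gene ctss2.2, both at 0.153, then txnb at 0.157, fga at 0.162 and fgb at 0.182. Each list of 5 held both other fibrinogen chains, a description that tests nothing. The floor of 100 was set on the mean of all 4 arrays, so genes dim in wildtype larvae could pass through high mutant readings. The wildtype means of junba and junbb, 68.3 and 93.0, were below that floor.

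The calls of fgb and fgg were lost with a pseudocount of 16, at limma adjusted p-values of 0.15 and 0.14, and in the model without limma's sharing of spread, at 0.58 and 0.57. The latter model called 0 probe sets on the whole array, so that loss was not particular to these 2 genes. Over the 12 other settings tried the adjusted p of fgb ranged from 0.0023 to 0.58 and that of fgg from 0.0017 to 0.57, while their log2 changes stayed between 1.48 and 2.36 and between 1.31 and 2.14.

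**Figure D5:**
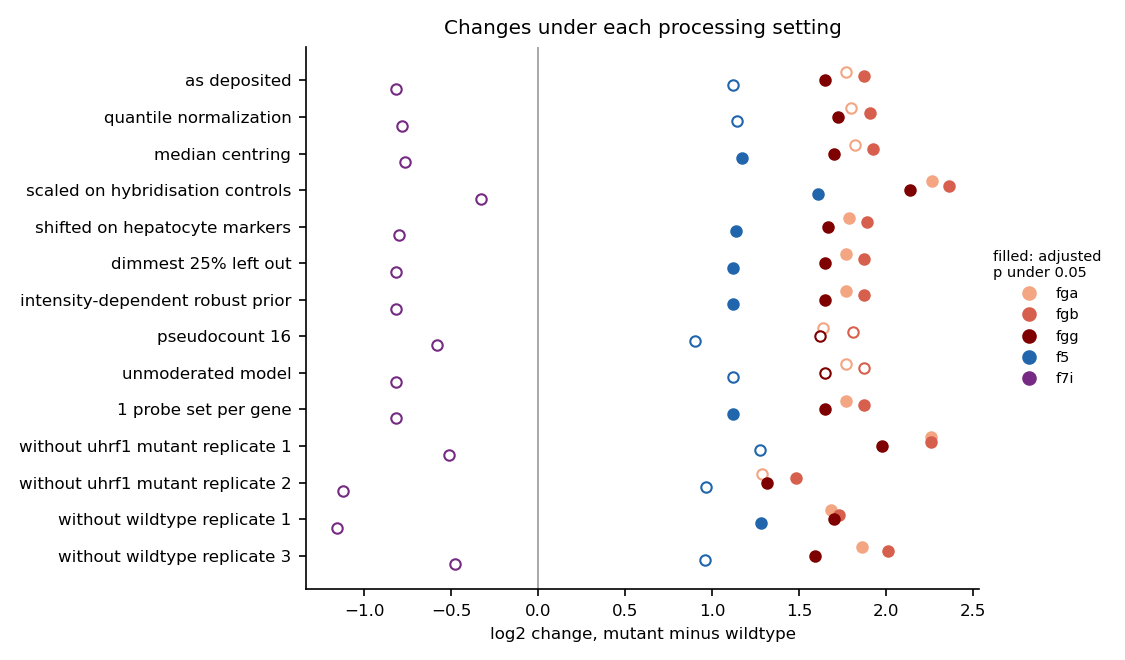
Log2 change, mutant minus wildtype (horizontal axis), of fga, fgb, fgg, f5 and f7i under each processing setting (rows), filled where the adjusted p was under 0.05. The fibrinogen chains are at 1.28 or higher and f7i at -0.33 or lower in every row, while the calls of fga and f5 come and go.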

How the data were processed

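Per the submitters' processing notes, the authors made the deposited intensities with RMA. The version was not given in the sources used here. After 115 array controls were removed from 15617 rows, 10795 probe sets had exactly 1 annotated gene, 135 had several and 4572 had none. Updating symbols by Entrez ID changed no member. Gene lists used the probe set of each gene with the highest mean over all arrays.

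On log2(intensity + 1), limma 3.58.1 (R 4.3.3) fitted mutant against wildtype as the only term, with 2 residual and 4.04 prior degrees of freedom and two-sided p-values. The fit was tested on simulated data. The number of arrays limits the precision, and RMA understates changes of dim probe sets. Named genes were all members, called genes of each list with up to 4 of its smallest p-values, and the 5 nearest profiles. Some further list genes (jak1, foxa1, foxa2, foxa3, hnf4a, hnf1bb, jak2a, jak2b, serping1, tfpia, kng1, serpinf2a, fabp10a, fetub, apobb.1, apoba, apoa1a) were named after their values were seen. Members, lists and alternatives were chosen with earlier results of these data known. No sequence was used here, so the planned promoter motif search was not run.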

Additional observations from a re-analysis of the deposited data

How the results depend on the processing

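The number of clotting probe sets called higher was 2 as deposited. It was 4 with the dimmest 25% of probe sets left out, 4 with an intensity-dependent robust prior, 4 with 1 probe set per gene, 8 with arrays scaled on the hybridisation controls, 0 with a pseudocount of 16 and 0 in the unmoderated model. Leaving out 1 array gave 2 to 4. The 4 came without wildtype replicate 1. These fits assume that a lone array varies like the other group. None was called lower in limma under any alternative. The median change of the members was 0.05 as deposited and -0.03 to 0.12 with 1 array left out, below 0 without mutant replicate 2 or without wildtype replicate 3. It was 0.36 without the dimmest 25% and 0.54 with scaling on the controls. Changes were 1.81 for fgb and 1.62 for fgg with a pseudocount of 16, and 1.87 and 1.65 in the unmoderated model. Over all probe sets 233 were called as deposited, 320 without the dimmest 25%, 394 with the robust prior, 281 with 1 probe set per gene, 154 to 310 with 1 array left out, 80 with a pseudocount of 16, 5223 with scaling on the controls and 0 in the unmoderated model.

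The shift on hepatocyte markers, added after seeing the data, called 4 members and 300 probe sets in all. It moved every change by the same small amount and so tests nothing on liver content. It also gave all probe sets a shared spread, so its p-values are not set beside the others. No paired analysis was possible because the groups share only replicate number 1. Background correction could not be varied, since only RMA values were at hand, and no direction was reversed for fga, fgb, fgg, f5, f7i or the brighter plg probe set.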
